A study of Mus musculus with 8 samples.

Results

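Isozymes that carry carbon between glucose and pyruvate were followed through the transcripts of 8 genes in mouse liver and liver tumours. The genes were the hexokinases Hk1 and Hk2, the pyruvate kinases Pkm and Pklr, the aldolase Aldoa, and the gluconeogenesis enzymes Fbp1, G6pc and Pck1. The genes were chosen by symbol from the table that pairs array probes with genes, and a gene with several probes would have been represented by its brightest. Each of the 8 genes had 1 probe, listed with a value on all 8 arrays, and they are 8 of 19321 genes on the array. All 8 were among the 16800 genes tested.

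Total RNA was measured on 8 single-colour oligonucleotide arrays. All mice had been given the carcinogen DMBA as neonates, at 4 to 5 days of age, and were then kept on a diet for 30 weeks. The normal diet liver group held 2 arrays (mice 117 and 120), and the mice on high fat diet gave 3 arrays of non-tumour tissue and 3 of tumour tissue (mice 117, 186 and 1 for both). Tumour and non-tumour arrays of one number come from the same liver, and the mouse numbered 117 on normal diet is another animal. The normal diet animals also carry the carcinogen exposure, so no group is untreated liver, and no tumour of a normal diet mouse was analysed here.

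Hexokinase phosphorylates glucose on entry into the cell, and glucose-6-phosphatase, encoded by G6pc, removes that phosphate again so that liver can release glucose to the blood. Adult hepatocytes express little Hk1 and Hk2, which are high-affinity forms of many other tissues, of fetal liver and of many tumours. Pyruvate kinase closes glycolysis; Pklr encodes the liver and red cell forms, and Pkm the muscle form and the form typical of fetal tissue and proliferating cells. Pck1 and Fbp1 bypass the irreversible steps of glycolysis in the opposite direction. The comparison asks how the forms typical of adult liver and those typical of fetal or tumour tissue stood in the 3 groups.

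The sequences upstream of 3 members are shown because their signals separated the groups most widely. These members are Hk2, the only 1 with a limma adjusted p below 0.05 between the diets, and G6pc and Pck1, which had the largest tumour differences. Each sequence is the 250 bases before the annotated start, from RefSeq on build GRCm38.p6, written 5′ to 3′ on the gene's strand. Hk2 lies on the minus strand at chr6:82774455-82774704, G6pc on the plus strand at chr11:101367466-101367715 and Pck1 on the plus strand at chr2:173152823-173153072. Capitals mark matches to a searched motif, read on either strand.
Hk2: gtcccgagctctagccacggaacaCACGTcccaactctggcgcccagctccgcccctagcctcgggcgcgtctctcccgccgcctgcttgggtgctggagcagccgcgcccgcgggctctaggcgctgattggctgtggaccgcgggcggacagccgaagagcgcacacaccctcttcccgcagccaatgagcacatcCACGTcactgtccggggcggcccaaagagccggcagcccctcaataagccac
G6pc: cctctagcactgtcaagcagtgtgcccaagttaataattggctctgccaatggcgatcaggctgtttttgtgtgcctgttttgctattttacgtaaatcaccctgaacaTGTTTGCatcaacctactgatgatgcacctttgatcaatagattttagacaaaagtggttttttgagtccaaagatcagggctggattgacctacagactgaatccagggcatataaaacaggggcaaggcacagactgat
Pck1: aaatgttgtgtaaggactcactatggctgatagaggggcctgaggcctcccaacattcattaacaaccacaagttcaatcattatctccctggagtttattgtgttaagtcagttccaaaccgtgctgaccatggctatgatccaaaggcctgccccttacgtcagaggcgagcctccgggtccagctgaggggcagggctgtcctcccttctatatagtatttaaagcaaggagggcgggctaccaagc

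The Hk2 window holds ACGTG, the core of the hypoxia response element, at 2 places, both on the opposite strand, starting 226 and 52 bases before the annotated start. The G6pc window holds the forkhead motif TGTTTGC, the kind bound by FOXO and FOXA factors, 141 bases before the start. No searched motif matched in the Pck1 window, which says only that these letters do not occur in it. Of 32851 windows of the same length in the table, 16.6% hold ACGTG and 4.30% hold TGTTTGC. The other motifs searched, on both strands, were the E-box CACGTG (6.02% of windows), which contains ACGTG, the cAMP response element TGACGTCA (1.55%), the forkhead form TGTTTAC (3.17%), the HNF4 motif CAAAGTCCA (0.384%) and the C/EBP motif TTGCGCAA (0.164%). Among the 13 windows of the 8 members, ACGTG also occurred upstream of Pkm and of Aldoa and TGTTTGC upstream of Hk1. These matches describe letters and not binding, which the arrays did not measure.

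Levels below are the authors' normalized intensities, a linear scale on which the median listed probe of every array is 25, and they compare a gene between arrays, not genes with each other. Differences are log2 differences with their standard error (SE) from a limma model fitted to all genes on all 8 arrays, and a gene is called changed at a Benjamini-Hochberg adjusted p below 0.05 over the 16800 genes tested. Before log2 an offset of 50 was added, which shrinks the difference of dim probes such as those of Hk1, Hk2 and Pkm, so the ratio of mean intensities is given beside it. All arrays of a group are separate mice as far as the labels say, and in tissue samples a lower signal from fewer cells of a type and from less RNA per cell cannot be told apart. Array depth has no meaning here, and the number of arrays limits the precision. Between 81.8% and 88.5% of probes were listed per array, and any pair of arrays correlated at 0.984 to 0.996 inside a group and at 0.919 to 0.983 across groups.

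Tumour tissue was compared first with the non-tumour tissue of the same livers. Of the 8 members, 2 were higher in tumours (Hk1, Pkm) and 4 were lower (Hk2, Fbp1, G6pc, Pck1), and Pklr and Aldoa were not called. Over all genes 25.4% were called in this comparison, 12.0% higher and 13.4% lower. The members' median log2 difference was -0.57, against -0.01 over all genes. The values of tumour and non-tumour arrays did not overlap for 7 members, 2 higher and 5 lower, whereas 41.4% of all genes did not overlap (19.1% higher, 22.3% lower).

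**Figure D1:**
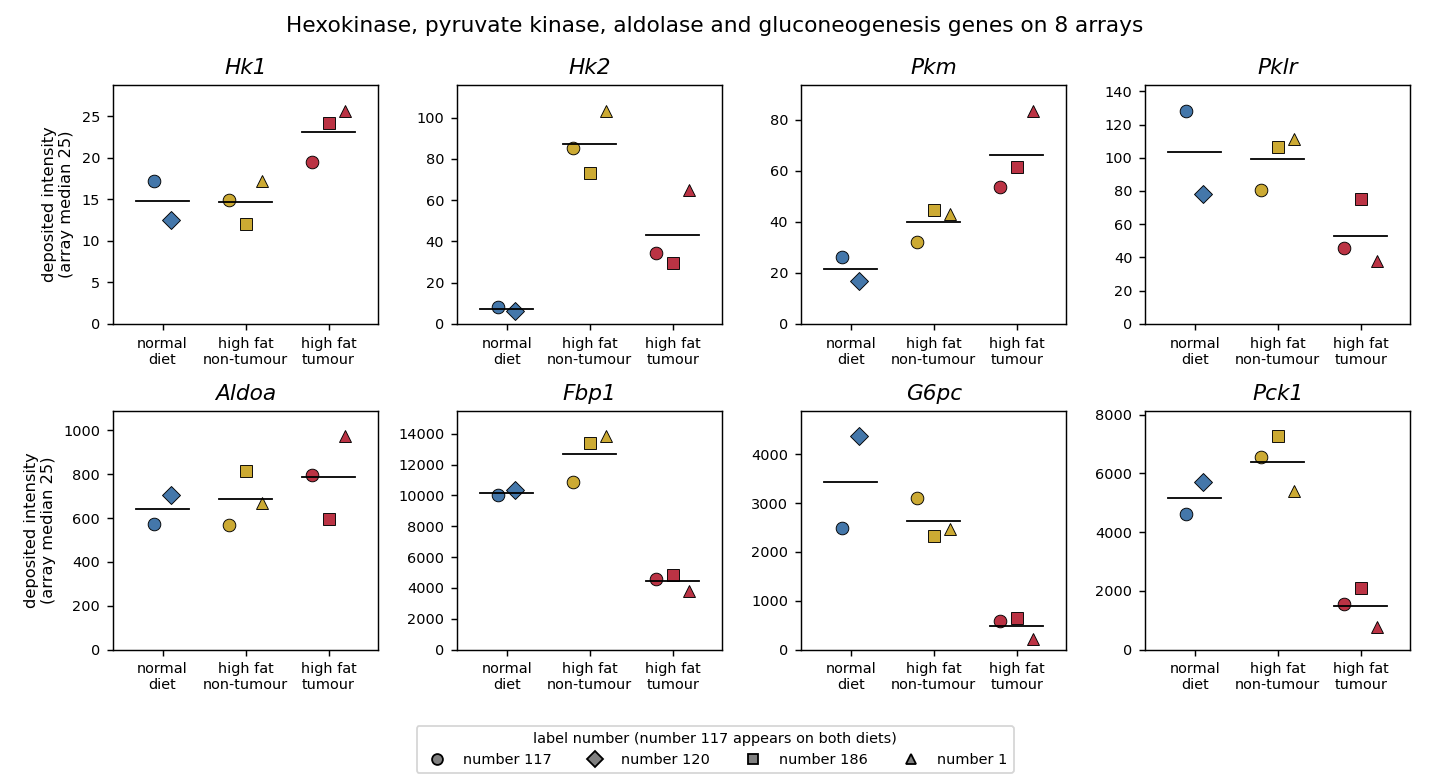
Normalized intensity (linear axes from 0, a separate axis per gene) of the 8 members on each of the 8 arrays, as points by group, with group means. Fbp1, G6pc and Pck1 are lowest in the 3 tumours, Hk2 is highest in the 3 non-tumour arrays, and Pkm values stand in the order normal diet liver, non-tumour tissue, tumour.

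Hk2 (chromosome 6, 82725025 to 82774454) encodes a hexokinase form that is typical of muscle, fat and many tumours. Its intensity was 8.4 and 6.3 in normal diet liver (mice 117 and 120), 85.3, 73.3 and 103.4 in high fat non-tumour tissue (mice 117, 186 and 1) and 34.5, 29.7 and 64.7 in the tumours of the same mice. The 3 groups did not overlap, and non-tumour tissue, not tumour, held the highest values. The group means were 7.35 ± 1.49 (SD, n = 2), 87.3 ± 15.2 (n = 3) and 43.0 ± 19.0 (n = 3). Hk2 is thus lower in tumours than beside them, which goes against its name as a tumour isozyme in that contrast, and higher than in normal diet liver.

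Between high fat non-tumour tissue and normal diet liver the ratio of mean Hk2 intensities was 11.9, and the log2 difference was 1.34 ± 0.17 (SE; limma adjusted p = 0.0137). On the deposited intensities themselves the log2 difference was 3.57 ± 0.32 (limma adjusted p = 0.000813). The dimmest Hk2 value lay 5.35 blank-spot standard deviations above the blank spots, so the normal diet arrays gave a measured level. The call was lost when either normal diet array was left out (limma adjusted p = 0.0896 without mouse 117 and 0.102 without mouse 120), with log2 differences of 1.36 and 1.32, and with a local background (0.574). Over its 17 alternatives the adjusted p ran from 0.000813 to 0.574, and the log2 difference from 0.72 to 3.61.

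In tumours Hk2 fell by 0.60 ± 0.15 log2 units (SE) against non-tumour tissue (limma adjusted p = 0.0296), and mean intensity in non-tumour tissue was 2.03 times that in tumours. Within the mice, non-tumour tissue had 2.47 times the tumour level in mouse 117, 2.47 in mouse 186 and 1.60 in mouse 1. This call stood close to the threshold. The limma adjusted p was 0.0563 in the fit of only the 2 groups compared. Leaving out either normal diet array repeats that fit, since a single array left in a group adds nothing to the spread. The adjusted p was 0.0778, 0.0531 and 0.0933 without the non-tumour array of mouse 117, 186 or 1. Without the tumour of mouse 117 or 186 it was 0.0862 and 0.0521. Over its 18 alternatives, which count the repeated fit more than once, the adjusted p ran from 0.00423 to 0.630. All gave a lower value in tumours. Against normal diet liver, tumours were 0.74 ± 0.17 log2 units higher (limma adjusted p = 0.0191; ratio of mean intensities 5.85), with adjusted p of 0.0935 and 0.101 when the normal diet array of mouse 117 or 120 was left out, in a range of 0.000614 to 0.409 over 17 alternatives.

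Hk1 (chromosome 10, 62268855 to 62379920) encodes the hexokinase of brain, red cells and most other tissues. Its intensity was 17.2 and 12.5 in normal diet liver, 14.9, 12.0 and 17.2 in non-tumour tissue and 19.5, 24.2 and 25.7 in tumours. The 3 tumour values lay above all other arrays, while the diets overlapped. Hk1 rose in tumours by 0.19 ± 0.04 log2 units (SE) against non-tumour tissue (limma adjusted p = 0.0168; ratio of mean intensities 1.57) and by 0.20 ± 0.05 against normal diet liver (limma adjusted p = 0.0201; ratio 1.56). The first call held under every omission of 1 array and was lost only with a local background (limma adjusted p = 0.740, the highest of 18 alternatives, which began at 0.0128). The second was lost without the normal diet array of mouse 120 (0.127) and on the deposited intensities (0.0527), in a range of 0.0155 to 0.560. Between the diets the log2 difference was 0.01 ± 0.05 (limma adjusted p = 0.946), with a sign that changed between settings.

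Pkm (chromosome 9, 59656576 to 59679372) had an intensity of 26.4 and 16.8 in normal diet liver, 32.2, 44.5 and 43.3 in non-tumour tissue and 53.7, 61.5 and 83.7 in tumours. No 2 groups overlapped. The group means were 21.6 ± 6.79 (SD, n = 2), 40.0 ± 6.78 (n = 3) and 66.3 ± 15.6 (n = 3). Pkm rose in tumours by 0.78 ± 0.11 log2 units (SE) against normal diet liver (limma adjusted p = 0.00395; ratio of mean intensities 3.07), and that call held under every omission of 1 array. Against non-tumour tissue it rose by 0.41 ± 0.10 (limma adjusted p = 0.0296; ratio 1.66). The latter call was lost without the non-tumour array of mouse 117 (0.0866) or mouse 1 (0.0722), without the tumour of mouse 1 (0.0507) and on the deposited intensities (0.0566), in a range of 0.0206 to 0.712 over 18 alternatives. Between the diets the difference of 0.38 ± 0.11 log2 units was not called (limma adjusted p = 0.136). The probe was matched to the gene as a whole, and whether its signal came from the muscle form or the fetal form was not determined here.

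Pklr (chromosome 3, 89136122 to 89146815) was lower in the tumour than beside it in each mouse. Its intensity was 128.4 and 78.3 in normal diet liver, 80.7, 106.6 and 111.1 in non-tumour tissue and 45.9, 75.0 and 38.1 in tumours. All 3 tumours lay below all other arrays, by a small gap in mouse 186 (75.0 against a lowest other value of 78.3), which became an overlap with normal diet liver on the quantile-normalized scale. The log2 difference from non-tumour tissue was -0.54 ± 0.17 (SE) and was not called (limma adjusted p = 0.0638), although non-tumour tissue had 1.76, 1.42 and 2.92 times the tumour level in mice 117, 186 and 1. It was called on the deposited intensities (0.0383; log2 difference -0.96), with blank subtraction (0.0448), with an offset of 16 (0.0412) and without the tumour of mouse 186 (0.0290), in a range of 0.0290 to 0.884 over 18 alternatives. Against normal diet liver the difference was -0.48 ± 0.19 (limma adjusted p = 0.114; 0.0432 on the deposited intensities and 0.0487 without the tumour of mouse 186, in a span of 0.0432 to 0.991), and 0.06 ± 0.19 between the diets (limma adjusted p = 0.907).

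Pklr also encodes the red cell form of the enzyme, so red blood cell markers are given beside it. All 3 tested red cell markers fell in tumours against non-tumour tissue: Alas2, the erythroid enzyme that starts haem synthesis, Car1, a carbonic anhydrase of red cells, and Epb42, a red cell membrane protein, the last of which lost its call on the deposited intensities (limma adjusted p = 0.108). The summed intensity of the listed markers was 496.1 to 597.7 in normal diet liver, 359.3 to 423.6 in non-tumour tissue and 124.0 to 134.4 in tumours. Alas2 was 301.1, 306.4 and 364.1 in non-tumour tissue and 102.3, 106.1 and 115.3 in tumours of mice 117, 186 and 1. The part of red cell RNA in the Pklr values was not tested.

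The balance of the pyruvate kinases was taken within each array as log2 Pkm minus log2 Pklr, which shows unequal change and not which transcript is the more abundant. It was -1.18 and -0.94 in normal diet liver, -0.70, -0.76 and -0.79 in non-tumour tissue (mice 117, 186 and 1) and 0.12, -0.17 and 0.65 in tumours. The groups did not overlap, and the order ran from normal diet through non-tumour to tumour. The difference was 0.95 between tumour and non-tumour tissue, 0.31 between high fat non-tumour and normal diet and 1.26 between tumour and normal diet. On the deposited intensities, with no offset, the same differences were 1.67, 0.94 and 2.61, and with blank subtraction 1.65, 0.87 and 2.52. In each of these, the 2-sided exact permutation test over arrays gave p = 0.1, the smallest these group sizes allow, so none can pass 0.05. Scaling to the same median gave 0.18 between the diets, and a local background 0.51, -0.02 and 0.49.

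**Figure D2:**
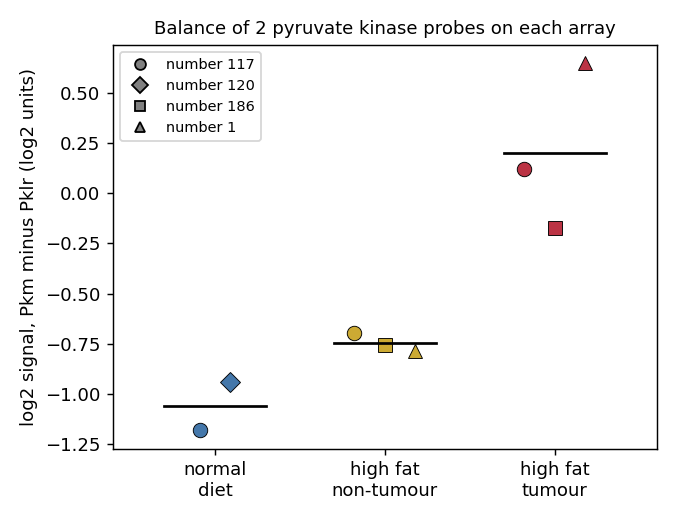
Log2 Pkm signal minus log2 Pklr signal on each array (y axis, log2 units), points by group, with bars at the group means and the marker shape giving the mouse number. The 3 tumours lie between -0.17 and 0.65, above non-tumour tissue at -0.79 to -0.70 and normal diet liver at -1.18 and -0.94.

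Aldoa (chromosome 7, 126795234 to 126800994) encodes the aldolase of muscle, red cells and fetal tissue, which splits fructose bisphosphate in glycolysis. Its intensity was 574.6 and 705.3 in normal diet liver, 569.1, 816.1 and 669.0 in non-tumour tissue and 794.0, 595.7 and 973.1 in tumours. The groups overlapped on this scale, and the mice differed in direction: the tumour had 1.40 times the non-tumour level in mouse 117 and 1.46 times in mouse 1, and 0.730 times in mouse 186. The log2 difference was 0.44 ± 0.19 (SE; limma adjusted p = 0.148) on the quantile-normalized signal and 0.19 on the deposited intensities. It was 0.67 ± 0.21 against normal diet liver (limma adjusted p = 0.0579; 0.28 on the deposited intensities, adjusted p = 0.415) and 0.23 ± 0.21 between the diets (limma adjusted p = 0.613). Without the tumour of mouse 186 the difference from normal diet liver was 0.83 (limma adjusted p = 0.0273) and without the non-tumour tissue of that mouse 0.67 (0.0486). It was also called with blank subtraction (0.0478), an offset of 16 (0.0381) and scaling to the same median (0.0404), and its 17 alternatives spanned 0.0273 to 0.787. With a local background the Aldoa differences were -1.45 against non-tumour tissue and -1.12 against normal diet liver.

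Fbp1 (chromosome 13, 62864753 to 62888298) encodes liver fructose-1,6-bisphosphatase, which reverses the phosphofructokinase step. Its intensity was 10044.7 and 10324.8 in normal diet liver, 10895.4, 13380.4 and 13843.3 in non-tumour tissue and 4602.1, 4833.2 and 3823.2 in tumours. The tumours were far below all other arrays and close to each other, and non-tumour tissue lay above normal diet liver on all 3 arrays. Fbp1 fell by 1.20 ± 0.16 log2 units (SE) in tumours against non-tumour tissue (limma adjusted p = 0.00313), and mean intensity in non-tumour tissue was 2.88 times that in tumours. That call held under every omission of 1 array. Against normal diet liver Fbp1 fell by 0.66 ± 0.18 (limma adjusted p = 0.0357). On the deposited intensities that fall was larger, at -1.21 (limma adjusted p = 0.00107), with 2.31 times the tumour mean in normal diet liver. The call against normal diet liver was lost without either normal diet array (0.153 without mouse 117, 0.140 without mouse 120), without the tumour of mouse 117 (0.0643) and without the non-tumour array of mouse 186 (0.0534) or mouse 1 (0.0554), in a range of 0.00107 to 0.608 over 17 alternatives. The difference of 0.54 ± 0.18 between the diets was not called (limma adjusted p = 0.159) except under scaling to the same median (0.0186, in a range of 0.0186 to 0.999).

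G6pc (chromosome 11, 101367716 to 101377903) encodes the catalytic subunit of glucose-6-phosphatase, and had the largest log2 SD over the 8 arrays of the 8 members (1.30). Its intensity was 2493.2 and 4371.9 in normal diet liver, 3102.3, 2327.0 and 2474.3 in non-tumour tissue and 582.7, 656.9 and 208.3 in tumours. The 3 tumours were below every other array and the diets overlapped. G6pc fell by 2.26 ± 0.48 log2 units (SE) in tumours against non-tumour tissue (limma adjusted p = 0.0160), with a ratio of mean intensities of 5.46 between non-tumour tissue and tumour. Non-tumour tissue had 5.32 times the tumour level in mouse 117, 3.54 times in mouse 186 and 11.9 times in mouse 1. The limma adjusted p was 0.0548 when the non-tumour tissue of mouse 117 was left out, and its 18 alternatives spanned 0.00216 to 0.0966. Against normal diet liver it fell by 2.30 ± 0.53 (limma adjusted p = 0.0214), a call that was lost without the normal diet array of mouse 117 (0.0567) or mouse 120 (0.133), in a range of 0.00158 to 0.133. Between the diets the log2 difference was -0.04 ± 0.53 (limma adjusted p = 0.983), with a sign that changed between settings.

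Pck1 (chromosome 2, 173153073 to 173159274) encodes the cytosolic enzyme that makes phosphoenolpyruvate from oxaloacetate, the entry to gluconeogenesis. Its intensity was 4629.4 and 5707.6 in normal diet liver, 6556.2, 7269.4 and 5390.4 in non-tumour tissue and 1555.1, 2109.4 and 753.7 in tumours. The tumours were again the 3 lowest arrays. Pck1 fell by 1.90 ± 0.41 log2 units (SE) in tumours against non-tumour tissue (limma adjusted p = 0.0169; ratio of mean intensities 4.35 between non-tumour tissue and tumour). Without the non-tumour array of mouse 117 or 186 the adjusted p was 0.0541 or 0.0566, and the 18 alternatives spanned 0.00163 to 0.340. Against normal diet liver the difference of -1.34 ± 0.45 was not called (limma adjusted p = 0.0716) but was on the deposited intensities (0.00458; -1.93), without the tumour of mouse 186 (0.0332), with blank subtraction (0.0451), an offset of 16 (0.0468) and scaling to the same median (0.0332), in a span of 0.00458 to 0.583. Between the diets it was 0.56 ± 0.45 (limma adjusted p = 0.569).

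Over the 3 tumours, that of mouse 1 held the highest value of Hk1, Hk2, Pkm and Aldoa and the lowest of Pklr, Fbp1, G6pc and Pck1. The tumour of mouse 186 held the highest value of Pklr, Fbp1, G6pc and Pck1. With 3 tumours this order is a description. The mouse number as a block in the model of the 6 high fat diet arrays changed no member's call: 6 members were called with the block, as without it.

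**Figure D3:**
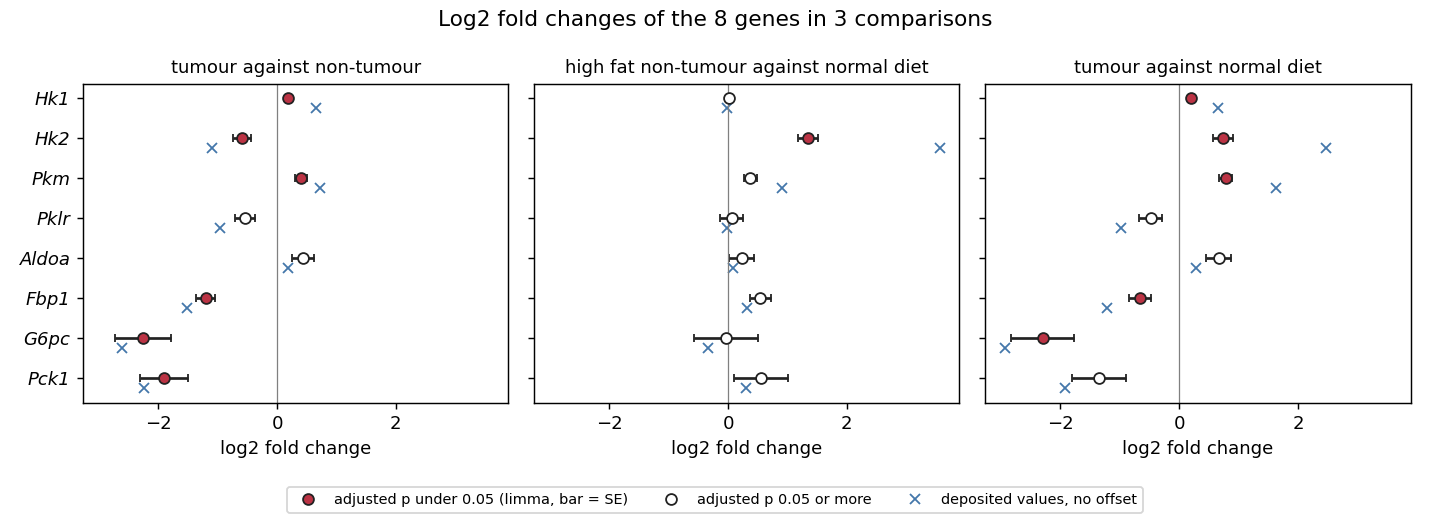
Log2 difference with SE of the 8 members in the 3 comparisons, from the quantile-normalized signal (circles, filled red where called) and from the deposited intensities (blue crosses). The deposited values lie farther from 0 for dim members such as Hk2, at 3.57 against 1.34 between the diets. Bright members, which the offset hardly touches, also differ between the scales. For tumour against normal diet the deposited values are -1.21 against -0.66 for Fbp1, -1.93 against -1.34 for Pck1 and -2.94 against -2.30 for G6pc. Aldoa is at 0.28 against 0.67 there. Blank subtraction followed by quantile normalization, not drawn, gave -0.66 for Fbp1, -1.37 for Pck1, -2.42 for G6pc and 0.71 for Aldoa in that comparison. The cause of the difference between the scales was not tested.

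The comparison of the diets called 1 of the 8 members, Hk2, higher in high fat non-tumour tissue, where 3.83% of all genes were called, 1.81% higher and 2.02% lower. On the quantile-normalized scale 4 members (Hk2, Pkm, Fbp1, Pck1) did not overlap between the diets, all higher on high fat diet, as did not 44.0% of all genes (21.0% higher, 23.0% lower). Against normal diet liver the tumours had 3 members called higher (Hk1, Hk2, Pkm) and 2 lower (Fbp1, G6pc), with 27.8% of all genes called, 12.9% higher and 15.0% lower. On the quantile-normalized scale 7 members did not overlap there, 4 higher (Hk1, Hk2, Pkm, Aldoa) and 3 lower (Fbp1, G6pc, Pck1), with Pklr overlapping, against 57.3% of all genes (25.5% higher, 31.8% lower). With the non-tumour arrays left out of the fit, the calls of Hk2, Fbp1 and G6pc against normal diet liver were lost (limma adjusted p = 0.0563, 0.0755 and 0.0676). Both tumour comparisons use the same tumour arrays, and each diet group serves in 2 comparisons, so their calls are not independent of each other. On the deposited intensities the median of all genes was shifted by -0.07 (tumour against non-tumour), -0.12 (high fat non-tumour against normal diet) and -0.19 (tumour against normal diet), which lies within each deposited log2 difference given here. Normexp correction with each spot's local background left 0 members called by limma in every comparison, with 3, 1 and 1 at an unadjusted p below 0.05, and 126, 3 and 220 of all genes called. On these arrays the local reading rose and fell with the spot itself, with rank correlations of 0.902 to 0.960.

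The isozymes that catalyse the same steps were read next, of which 5 were tested. Pck2, the mitochondrial partner of Pck1, was 32.1, 34.0 and 31.1 in non-tumour tissue and 74.8, 71.4 and 108.5 in tumours of mice 117, 186 and 1, and 32.9 and 36.6 in normal diet liver. It rose by 0.78 log2 units in tumours against non-tumour tissue (limma adjusted p = 0.00319) and by 0.76 against normal diet liver (limma adjusted p = 0.00478), whereas Pck1 fell against non-tumour tissue. Aldoc, the brain aldolase, was 103.4, 112.6 and 95.8 in non-tumour tissue and 197.4, 173.0 and 311.8 in tumours, a rise of 0.96 (limma adjusted p = 0.0229), but normal diet liver at 164.2 and 283.4 overlapped the tumours. Hkdc1, a further hexokinase family member, was 4.1, 2.8 and 3.0 in non-tumour tissue and 14.7, 18.2 and 90.5 in tumours, a difference of 0.73 that was not called (limma adjusted p = 0.134) but was on the deposited intensities (0.00495). Fbp2 of muscle and the widely expressed G6pc3 were not called in any comparison. Between the diets 0 of the 5 were called by limma, where 3.83% of all genes were called, and 1 had an unadjusted p below 0.05.

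Genes that supply carbon to gluconeogenesis or export its product were lower in tumours than in non-tumour tissue, with 9 of 12 tested called lower and 0 higher, against a share of 13.4% called lower over all genes. Their median log2 difference was -0.82. Slc25a10, the mitochondrial dicarboxylate carrier, fell by 1.47, Mdh1, the cytosolic malate dehydrogenase, by 1.27, Aqp9, the glycerol channel, by 1.20 and Got1, the cytosolic aspartate aminotransferase, by 0.89 (limma adjusted p = 0.000856, 0.00110, 0.0243 and 0.0242). Slc37a4, which carries glucose-6-phosphate to the G6pc enzyme, had an intensity of 916.4, 796.9 and 812.7 in non-tumour tissue and 410.7, 506.1 and 285.5 in tumours and fell by 0.81 (limma adjusted p = 0.0371). Slc2a2, the liver glucose transporter, was 1154.3, 1198.6 and 1049.0 against 564.3, 770.3 and 250.3, and its difference of -0.91 was not called (limma adjusted p = 0.159). Between the diets 1 of the 12 was called, where 3.83% of all genes were. It was Gpd1, the cytosolic glycerol-3-phosphate dehydrogenase, higher by 0.55 (limma adjusted p = 0.0253, and 0.139 on the deposited intensities).

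In lactate and pyruvate handling 9 of 18 genes were called lower in tumours than in non-tumour tissue and 2 higher, with a median of -0.34. The share called was 61.1%, beside 25.4% of all genes. Dlat, a subunit of the pyruvate dehydrogenase complex, fell by 0.77, Pcx, pyruvate carboxylase, by 0.59, Pdk2 by 0.58 and Pdk4 by 0.50, the last pair being kinases that inhibit that complex (limma adjusted p = 0.00904, 0.0268, 0.00112 and 0.0361). Pcx is also 1 of the 9 supply genes above. Between the diets 4 of the 18 were called higher and 0 lower, beside 1.81% higher and 2.02% lower over all genes. Ldha, lactate dehydrogenase A, was 4136.7 and 4126.7 in normal diet liver and 7566.7, 5891.8 and 7368.1 in non-tumour tissue, a rise of 0.99 (limma adjusted p = 0.0307), and 7850.0, 5080.1 and 7591.3 in tumours. Slc16a7 and Slc16a1, monocarboxylate transporters, rose by 0.71 and 0.53 and Mpc1, a subunit of the mitochondrial pyruvate carrier, by 0.53 (limma adjusted p = 0.0458, 0.0306 and 0.0307). On the deposited intensities these 4 diet differences were not called (limma adjusted p = 0.0979, 0.0619, 0.155 and 0.407 in the same order).

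Of the steps of glycolysis that all these isozymes share, 1 of 11 genes was called higher and 1 lower in tumours against non-tumour tissue, 18.2% against 25.4% of all genes, with a median of -0.13. Pfkp, the platelet form of phosphofructokinase, rose by 0.31 and Eno3, the muscle enolase, fell by 0.21 (limma adjusted p = 0.00671 and 0.00334). Pfkp intensity was 7.7 and 8.9 in normal diet liver, 13.3, 13.8 and 9.7 in non-tumour tissue and 26.1, 24.3 and 27.7 in tumours. Between the diets 1 gene of the 11 was called, where 3.83% of all genes were. It was Pgam1, phosphoglycerate mutase, higher by 0.40 (limma adjusted p = 0.00890, and 0.743 on the deposited intensities).

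**Figure D4:**
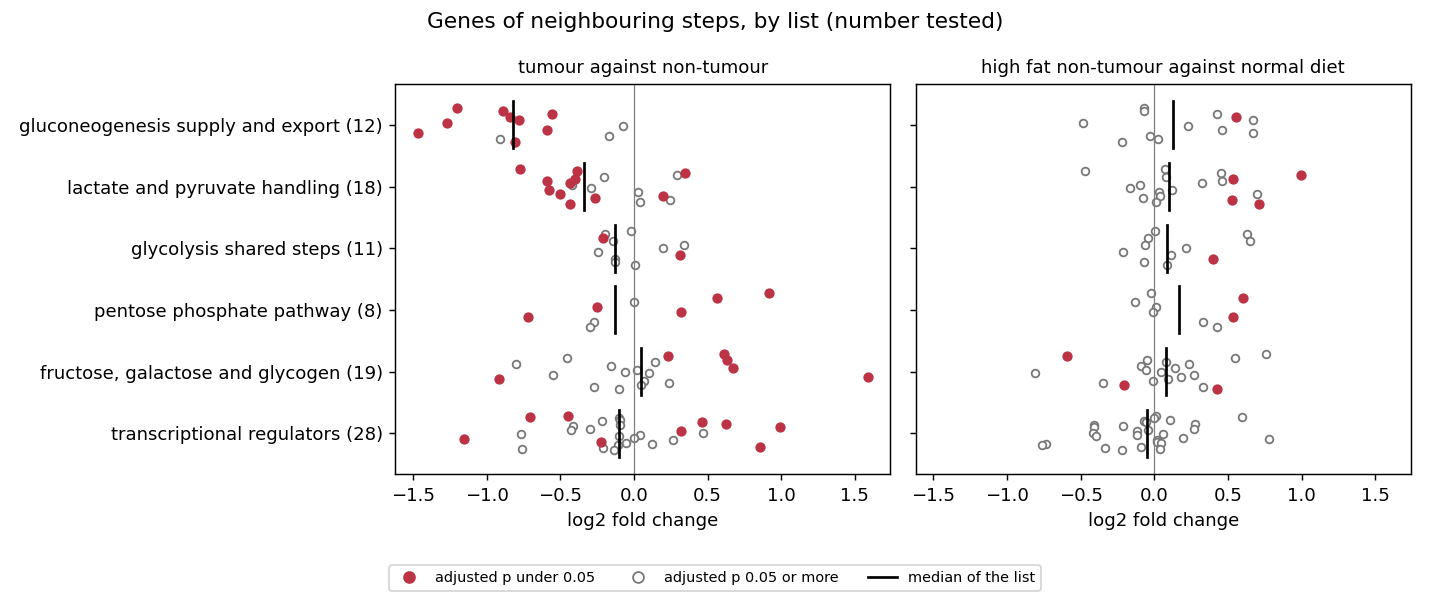
Log2 differences of the single genes of 6 pathway lists (points; red where called) with the list median, for tumour against non-tumour tissue and for high fat non-tumour tissue against normal diet liver. Gluconeogenesis supply and export genes lie mostly below 0 in the tumour comparison, with a median of -0.82 and 9 of 12 called lower.

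The glycogen phosphorylases, like the pyruvate kinases, come in a liver form and forms of other tissues. Pygb, the brain glycogen phosphorylase, was 31.1, 27.4 and 20.3 in non-tumour tissue and 142.3, 117.9 and 230.8 in tumours, a rise of 1.59 log2 units (limma adjusted p = 0.00192). Pygl, the liver phosphorylase, was 1536.5, 1490.8 and 1714.9 against 660.8, 758.7 and 601.1, a fall of 0.92 (limma adjusted p = 0.00240). Pgm2, a phosphoglucomutase, and Gys1, the muscle glycogen synthase, rose by 0.68 and 0.63 (limma adjusted p = 0.00208 and 0.000686). In all, 5 of 19 genes of fructose, galactose and glycogen were called higher and 1 lower, with a median of 0.05. That was 31.6% of the list, beside 25.4% of all genes. Between the diets 1 of the 19 was called higher and 2 lower, beside 1.81% higher and 2.02% lower over all genes. Galt, the uridylyltransferase of galactose breakdown, was 932.9 and 928.4 in normal diet liver and 541.4, 460.8 and 554.8 in non-tumour tissue, a fall of 0.59 (limma adjusted p = 0.00558). Slc2a8, a sugar transporter, fell by 0.20 (limma adjusted p = 0.0471; 0.0897 on the deposited intensities), and Ugp2, which makes UDP-glucose, rose by 0.43 (limma adjusted p = 0.0483; 0.639 on the deposited intensities).

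The pentose phosphate pathway had 3 of 8 genes higher and 2 lower in tumours against non-tumour tissue, with a median of -0.13. That was 62.5% of the list, beside 25.4% of all genes. Pgd, 6-phosphogluconate dehydrogenase, rose by 0.56 and Taldo1, transaldolase, fell by 0.72 (limma adjusted p = 0.000527 and 0.000815). H6pd, the enzyme that uses glucose-6-phosphate inside the endoplasmic reticulum, rose by 0.92 (limma adjusted p = 0.0349; 0.0525 on the deposited intensities). Between the diets Pgd and Taldo1 were both called higher, where 1.81% of all genes were. They rose by 0.60 and 0.54 (limma adjusted p = 0.00290 and 0.0158, and 0.0528 and 0.454 on the deposited intensities). Of 6 glucose transporters 33.3% were called: Slc5a1 rose by 0.60 and Slc2a9 fell by 0.36 in tumours (limma adjusted p = 0.000283 and 0.0243).

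Of 28 transcriptional regulators of these genes, 5 were called higher and 4 lower in tumours against non-tumour tissue, with a median of -0.10. That was 32.1% of the list, beside 25.4% of all genes. Ppargc1a, a coactivator of gluconeogenesis genes, was 57.5, 71.1 and 60.3 in non-tumour tissue and 122.8, 149.1 and 150.4 in tumours, a rise of 0.86 (limma adjusted p = 0.000640), while G6pc and Pck1 fell in the same samples. Foxa3 rose by 0.99, and Nr0b2, a corepressor, and Cebpb fell by 1.15 and 0.71 (limma adjusted p = 0.00543, 0.0220 and 0.0225). Between the diets 0 of 28 were called by limma, where 3.83% of all genes were called, and 5 had an unadjusted p below 0.05 (3 higher, 2 lower).

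Among 13 genes of insulin and glucagon signalling 1 was called higher and 3 lower in tumours against non-tumour tissue, with a median of -0.02. The share called was 30.8%, beside 25.4% of all genes. The gene called higher was Igfbp1, an insulin-repressed binding protein of insulin-like growth factors. Its intensity was 164.7, 390.8 and 292.3 in non-tumour tissue and 5373.9, 4537.0 and 9518.7 in tumours, a log2 difference of 4.59 (limma adjusted p = 0.00241), and 21.6 and 240.0 in normal diet liver. Pik3r1, the regulatory subunit of PI3-kinase, fell by 0.84, Gcgr, the glucagon receptor, by 0.41 and Akt2 by 0.30 (limma adjusted p = 0.00435, 0.0349 and 0.0258). Trib3, a pseudokinase that binds AKT, stood on the list of hexokinase and phosphofructokinase regulators. Of the 8 genes of that list 1 was called higher and 1 lower, 25% against 25.4% of all genes. Trib3 rose by 1.10 (limma adjusted p = 0.000392), and Tigar, a fructose bisphosphatase, fell by 0.10 (limma adjusted p = 0.0483).

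Of 15 hypoxia-inducible genes 4 were called higher and 2 lower in tumours against non-tumour tissue, with a median of 0.28. The share called was 40%, beside 25.4% of all genes. Ddit4, an inhibitor of mTORC1, was 40.7, 80.8 and 72.5 in non-tumour tissue and 173.1, 229.6 and 414.8 in tumours, a rise of 1.60 (limma adjusted p = 0.00681). Ero1a and Kdm3a rose by 0.75 and 0.49 (limma adjusted p = 0.0392 and 0.0228). Vegfa rose by 0.33 (limma adjusted p = 0.0390), a call that was lost on the deposited intensities (0.0854). The 2 genes called lower had smaller differences than these 4 and are not named by the rule of size. Between the diets 0 of 15 were called by limma, and 5 had an unadjusted p below 0.05 (4 higher, 1 lower), where 3.83% of all genes were called.

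Tumours were also set against normal diet liver for the same lists. Over all genes 27.8% were called there, 12.9% higher and 15.0% lower. Gluconeogenesis supply and export had 6 of 12 genes called lower and 0 higher, with a median of -0.54, led by Mdh1 at -1.75 (limma adjusted p = 0.000539). Lactate and pyruvate handling had 4 of 18 higher and 5 lower: Ldha rose by 1.29 and Slc16a1 by 0.77 (limma adjusted p = 0.00251 and 0.00166). On the deposited intensities given above the Ldha rise was smaller. The alanine aminotransferases moved apart, with Gpt at 3083.4 and 2712.7 in normal diet liver and 1056.6, 1158.6 and 982.7 in tumours and Gpt2, the mitochondrial form, at 280.7 and 295.2 against 377.1, 436.7 and 444.0 (log2 differences of -0.85 and 0.80, limma adjusted p = 0.00374 and 0.00253). Shared glycolysis steps had 3 of 11 higher and 2 lower. Of these Pfkp rose by 0.43 and Pfkm, the muscle phosphofructokinase, fell by 0.46 (limma adjusted p = 0.00304 and 0.00831), while Gapdh and Pgam1 were called higher by 0.51 and 0.27 but were at -0.06 and -0.27 on the deposited intensities. Fructose, galactose and glycogen had 5 of 19 higher and 3 lower (Pygb 1.77, Pygl -0.83), and the pentose phosphate pathway 2 of 8 higher and 1 lower (Pgd 1.16). Transcriptional regulators had 4 of 28 in each direction, and hypoxia-inducible genes 1 of 15 in each direction (Ddit4 2.34, Pdk1 -0.46).

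Markers of cell types were set beside these results. Of all genes 25.4% were called between tumour and non-tumour tissue. Among 10 hepatocyte markers 2 were called higher and 3 lower in tumours against non-tumour tissue. Alb, albumin, was 44979.7, 47773.8 and 48176.7 in non-tumour tissue and 45194.4, 48627.9 and 47983.5 in tumours and was not called (limma adjusted p = 0.559). The 3 called lower were Cyp2e1, a cytochrome P450, and the urea cycle enzymes Ass1 and Cps1, and Cyp2e1 was 31084.1, 24645.1 and 32305.6 against 5359.0, 7217.8 and 1305.1. The summed intensity of the hepatocyte markers was 173700 to 185100 in non-tumour tissue and 171200 to 181100 in tumours, and 223100 to 230300 in normal diet liver. These sums weigh the brightest probes, such as Alb, most and carry each array's scaling to a median of 25. The markers' median log2 difference was 0.002 between tumour and non-tumour tissue, -0.21 between the diets and 0.08 between tumour and normal diet. Hepatocyte content was not tested. Endothelial markers had 3 of 9 called higher in tumours (summed intensity 428.1 to 598.3 in non-tumour tissue, 658.1 to 818.5 in tumours and 550.6 to 557.0 in normal diet liver). Cholangiocyte markers had 1 of 7 called higher (326.7 to 389.5, 462.4 to 748.9 and 262.4 to 276.9 in the same order). Stellate cell and fibroblast markers had 2 of 10 called higher and 1 lower, with overlapping sums (1667 to 2421 in non-tumour tissue, 1612 to 2584 in tumours and 1078 to 1232 in normal diet liver), and Vim, vimentin of mesenchymal cells, was 248.1, 166.1 and 181.4 against 433.2, 515.2 and 411.5. Lrat, the retinol esterifying enzyme of stellate cells, was 70.0, 78.3 and 76.4 against 19.1, 24.6 and 19.7, a fall of 0.86 (limma adjusted p = 0.000417). Macrophage markers had 2 of 10 called higher and 1 lower (1718 to 2004 in non-tumour tissue, 1256 to 1835 in tumours and 1077 to 1705 in normal diet liver). By limma 0 of 8 neutrophil, 0 of 10 lymphocyte and 0 of 6 muscle and adipose markers were called, and 1, 0 and 1 of them had an unadjusted p below 0.05. Of 7 proliferation markers 3 were called higher and 1 lower (summed intensity 568.2 to 699.1 in non-tumour tissue, 478.6 to 640.3 in tumours and 569.7 to 613.6 in normal diet liver). In tumours 6 of the 7 were called higher and 0 lower than in normal diet liver, with a median of 0.49, where 12.9% of all genes were called higher; Cdk1, Birc5 and Top2a rose by 0.66, 0.60 and 0.54 (limma adjusted p = 0.0152, 0.00554 and 0.0124). Their part in the higher Hk1, Hk2 and Pkm values of that comparison was not tested. The muscle and adipose sum was 27.0 to 37.3 in non-tumour tissue, 30.9 to 37.3 in tumours and 36.1 to 38.4 in normal diet liver, and Adipoq was listed on no array. The part of muscle or fat tissue in the Hk2 values was not tested. Pkm and Hk1 are expressed by non-hepatocytes, and the part of those cells in their values was not tested.

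For each member the genes with the most similar profile were found among 16799 other genes, by the smallest root mean square difference of log2 signals centred per gene over the 8 arrays. G6pc was closest to Cyp27a1 (0.26), Nr1i3 (0.28) and Cyp8b1 (0.29), and Pck1 to Acot1 (0.24), Acaa1b (0.27) and Cyp4a10 (0.30). Fbp1 was closest to Fam107b (0.09), Slc47a1 (0.11) and Scp2 (0.13). Hk2, whose own log2 SD over the arrays was 0.58, was closest to S100a10 (0.12), Chac1 (0.14) and Dip2a (0.18). Pkm was closest to Cadm1 (0.07), Pklr to Adk (0.09), Aldoa to Ctla2b (0.11) and Hk1 to Shroom4 (0.03). Small differences are easier to reach for dim members such as Hk1, whose log2 SD was 0.11, than for G6pc, whose SD was 1.30. The 8 arrays of 3 groups share these differences, so the likeness is a description.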

How the data were processed

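Amplified RNA coupled to Cy5 was hybridised to 8 arrays, per the labels' protocols. The authors' deposited values are normalized intensities: recomputed from the scanner files, they equal the spot median minus the blank mean, scaled so that listed probes have a median of 25. The scanner intensity files give spot medians, per the file headers. The image analysis software is not given in the sources used here.

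For the tests, spot medians were corrected by normexp with 2736 blank spots of 27456 as negative controls (offset 50), quantile normalized and taken to log2, in limma 3.58.1 and R 4.3.3. Of 23473 probes, 20690 had 1 gene symbol and 2783 none. The brightest probe represented a gene, and a gene was tested if 1 group or more had it listed throughout. Group means were fitted to 8 arrays (5 residual and 1.49 prior degrees of freedom) and 2-sided contrasts adjusted by Benjamini-Hochberg; the fit was tested on simulated data.

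Tumour and non-tumour arrays of a number share a liver, per the labels; their deviations from the group means correlated at 0.443, 0.148 and 0.167, against -0.275 to 0.028 between different mice.

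The members and the lists (256 names, 232 on the array, 225 tested) were chosen with earlier results of these data known. Named genes are the members, their partner isozymes, up to 4 called genes per list and comparison by size, up to 3 markers per list, unlisted markers and the 3 most similar genes per member; the text takes part of these. Slc2a2, Alb and, against non-tumour tissue, Slc37a4 were added after their values were seen. Alternatives were other background corrections, an offset of 16, median scaling, deposited intensities, other filters and probe rules, the mouse block, fits of only 2 groups and leaving out each array.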

Additional observations from a re-analysis of the deposited data

How the results depend on the processing

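Of the members' alternative values, 344 kept direction and side of the threshold, 43 lost the call, 17 gained it and 12 changed sign. The cause was not tested. For tumour against non-tumour tissue these count the fit of only 2 groups more than once, since leaving out either normal diet array gave the same values. The 2 or 3 arrays a group limit the precision, and the offset shrinks differences of probes near the blank level. Normexp with the local background left 0, 0 and 0 members called (tumour against non-tumour, high fat non-tumour against normal diet, tumour against normal diet; 6, 1 and 5 otherwise), 126, 3 and 220 genes (4268, 644 and 4678 otherwise) and 2, 0 and 1 pathway genes (57, 11 and 47 otherwise). It turned the pyruvate kinase balance between the diets to -0.0171 and Aldoa to -1.4497 against non-tumour tissue and -1.1166 against normal diet. Between the diets, scaling to the same median called 2 members, 1403 genes and 24 pathway genes, with Hk1 at -0.0030 and G6pc at 0.1052; deposited intensities called 4 pathway genes, with Hk1 at -0.0119 and Pklr at -0.0256; an offset of 16 called 17 and the fit of only 2 groups 18. The fit of only 2 groups called 2 members between tumour and normal diet. Of called genes 47.1%, 47.2% and 46.2% were higher, and 75.4%, 0% and 59.5% with the local background, 37.3%, 77.3% and 38.9% with median scaling, 39.9%, 41.6% and 31.4% with deposited intensities, and 61.2% between the diets with blank subtraction. Leaving out 1 array gave 2 to 6, 0 to 1 and 1 to 8 members, 3115 to 4189, 95 to 781 and 2316 to 4438 genes, 37 to 59, 3 to 16 and 30 to 49 pathway genes, and balances of 0.7214 to 1.1317, 0.1942 to 0.4332 and 1.0351 to 1.4455. The fewest came without the non-tumour array of mouse 117 (2 members, tumour against non-tumour), without either normal diet array (0 members between the diets) and without normal diet mouse 120 (1 member, tumour against normal diet), the most without the tumour of mouse 186 (8 members). Between the diets, omission of 1 array gave -0.0319 to 0.0502 for Hk1, -0.1434 to 0.2675 for Pklr and -0.4605 to 0.3904 for G6pc. It turned Hk1 to -0.0319 (normal diet 120) and -0.0114 (non-tumour 1), Pklr to -0.1434 (normal diet 120) and G6pc to 0.3904 (normal diet 120), 0.0181 (non-tumour 186) and 0.0506 (non-tumour 1). The mouse as a block, a pairing of 3 livers, left 6 members, 3495 genes and 53 pathway genes called. These were the same 6 members as in the fit to 8 arrays. The 6 high fat diet arrays without the block gave 5 members, with Hk2 not called. The planned balances with the liver aldolase and with glucokinase were not run, since those partners were not analysed here.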
